A study of Mus musculus with 12 samples.

Results

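The 8 genes described here encode dopamine receptors (Drd1, Drd2, Drd4 and Drd5), the signalling protein DARPP-32 (Ppp1r1b), the adenosine A2a receptor (Adora2a) and the monoamine oxidases Maoa and Maob. They were taken by gene symbol from a table of 54532 genes, and each symbol was found once. The table held RNA-sequencing counts of whole spinal cord from C57BL/6 mice aged 2 to 3 months. There were 4 groups of 3 libraries, each labelled as a separate biological replicate. The groups were Drd2mGFAP conditional knockout mice (cKO) at day 17 of experimental autoimmune encephalomyelitis (EAE), control littermates (genotype wt) at day 17 of EAE, cKO mice without disease (basal) and control littermates without disease. EAE, an autoimmune attack on central myelin, models multiple sclerosis. By its title the study concerns DRD2 of astrocytes in inflammation of the central nervous system. The label names Gfap, the gene of an astrocyte filament. For the Cre line, the deleted exon and any pooling of animals, the labels gave no detail.

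Dopamine acts through receptors coupled to G proteins. Receptors of the D1 class (Drd1 and Drd5) raise cyclic AMP, and those of the D2 class (Drd2, Drd3 and Drd4) lower it. Cyclic AMP activates protein kinase A, which phosphorylates DARPP-32 and turns it into an inhibitor of protein phosphatase 1. The adenosine A2a receptor also raises cyclic AMP and opposes the D2 receptor in the striatal neurons that carry both. It is carried by leukocytes as well, where it dampens their activation. The monoamine oxidases sit on the outer mitochondrial membrane and break down dopamine, noradrenaline and serotonin. In the spinal cord dopamine arrives with fibres that descend from the brain, and dopamine receptors there are known mainly from neurons of the dorsal and ventral horns.

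RefSeq promoter sequences, from 250 bases before to 50 bases after the start of a gene, were found for 5 of the 8 genes (Drd1, Drd2, Drd4, Drd5 and Maoa). Those of Drd2 and Maoa are printed because RNA of the first fell in control EAE and RNA of the second did not pass edgeR's test in any comparison. Capitals mark the GC box, the core of the site that Sp1-type factors bind, searched as GGGCGG and, for the other strand, CCGCCC. Both promoters lie on the plus strand of build GRCm38.p6, the assembly also called mm10, at chr9:49340153-49340452 for Drd2 and chrX:16619448-16619747 for Maoa.
Drd2: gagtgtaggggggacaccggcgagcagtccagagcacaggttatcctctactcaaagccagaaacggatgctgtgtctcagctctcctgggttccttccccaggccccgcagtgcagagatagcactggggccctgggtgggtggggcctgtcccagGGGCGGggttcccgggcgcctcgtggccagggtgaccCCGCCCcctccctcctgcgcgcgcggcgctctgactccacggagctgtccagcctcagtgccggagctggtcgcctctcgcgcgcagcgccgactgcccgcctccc
Maoa: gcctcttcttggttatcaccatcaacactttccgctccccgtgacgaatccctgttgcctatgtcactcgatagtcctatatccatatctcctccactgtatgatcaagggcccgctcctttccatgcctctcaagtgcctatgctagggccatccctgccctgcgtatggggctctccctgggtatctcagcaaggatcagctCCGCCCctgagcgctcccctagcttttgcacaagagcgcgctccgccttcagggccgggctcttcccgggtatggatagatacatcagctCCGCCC
Each of these promoters held 2 GC boxes, those of Drd5 and Drd4 held 2 and 3, and both starts listed for Drd1 held 1. Of all 32851 promoters of this length in the table, 35.7% held at least 1. A match describes the letters and not the binding of a factor.

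In the deposited table (build mm10) Drd2 lies on chromosome 9 (49340627 to 49408177, plus strand), downstream of the RefSeq start used for the printed promoter. Drd1 lies on chromosome 13 (54051183 to 54055705, minus strand), Drd5 on chromosome 5 (38319367 to 38322518, plus strand) and Drd4 on chromosome 7 (141292006 to 141296464, plus strand). Ppp1r1b lies on chromosome 11 (98348404 to 98357796, plus strand) and Adora2a on chromosome 10 (75316877 to 75334784, plus strand). Maoa (16619698 to 16687818, plus strand) and Maob (16709282 to 16817366, minus strand) are X-linked neighbours that face each other tail to tail with 21463 bases between their ends. On the other strand of Ppp1r1b the gene 1700003D09Rik overlaps it and had 69 counts over all libraries, 0.793% of the Ppp1r1b counts. Gm26560 overlaps Drd5 on the other strand and had 13 counts, 4.74% of those of Drd5. Without a known strand setting, reads of such pairs cannot be told apart.

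Library totals ran from 15128913 to 17592105 counts. The 6 EAE libraries had Ddx3y, a Y-linked gene, at 69.7 to 74.5 CPM (counts per 1000000, TMM-normalised unless library totals are named), while the 6 basal libraries had 0 counts of it. Disease state and sex of the animals therefore cannot be told apart in any contrast of EAE with basal. The library cKO basal 2 had 17220 genes detected, against 24303 to 26056 in the other libraries, and a TMM factor of 0.728, against 1.01 to 1.06. Its TMM levels are thus raised over its levels per library total. The library cKO EAE 3 had Cd74, the invariant chain of MHC class II, at 6.56 CPM, against 888 to 2736 CPM in control EAE and 1.00 to 3.09 CPM in all basal libraries. All 8 Hox genes of the spinal identity list were counted in every library, at sums of 300 to 687 CPM. The 6 forebrain genes summed to 6.21 to 15.3 CPM.

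DARPP-32, both monoamine oxidases and Drd2 were the 4 most abundant of the 8 RNAs per length in every group, and Drd4 was the least abundant. On the scale of TMM CPM per kilobase of gene length, which allows levels of different genes to be compared, the order in control basal was Ppp1r1b (20.9 ± 1.35), Maoa (13.0 ± 2.03), Drd2 (8.59 ± 1.58), Maob (7.61 ± 1.32), Adora2a (0.579 ± 0.0361), Drd5 (0.489 ± 0.170), Drd1 (0.287 ± 0.101) and Drd4 (0.0616 ± 0.0321; SD, n = 3 each). Drd2 and Maob overlapped in that order, as did Adora2a with Drd5 and Drd5 with Drd1. In cKO EAE the 4 highest were Ppp1r1b (15.0 ± 1.95), Maoa (13.2 ± 0.437), Maob (8.89 ± 0.369) and Drd2 (5.05 ± 2.49), and in control EAE they were Maoa (11.1 ± 1.28), Maob (10.2 ± 0.328), Ppp1r1b (9.25 ± 1.93) and Drd2 (3.60 ± 0.156). Ppp1r1b and Maoa overlapped in cKO EAE. In cKO basal they were Ppp1r1b (14.0 ± 4.08), Maoa (13.9 ± 3.35), Drd2 (11.2 ± 3.73) and Maob (7.92 ± 0.812), where Ppp1r1b, Maoa and Drd2 overlapped and Drd2 also overlapped Maob. In control EAE, DARPP-32 overlapped both oxidases, which also overlapped each other, while in the other groups the DARPP-32 mean stood first. Among the lower genes Adora2a stood above Drd5 at EAE, at 1.17 ± 0.391 against 0.396 ± 0.0195 in cKO mice and at 2.31 ± 0.480 against 0.334 ± 0.0228 in control mice, and their ranges did not overlap. In cKO basal Drd5 (0.557 ± 0.0680), Adora2a (0.513 ± 0.186) and Drd1 (0.359 ± 0.0948) lay close together. Drd1 averaged 0.209 ± 0.0828 in cKO EAE and 0.188 ± 0.0873 in control EAE, and Drd4 0.0702 ± 0.0469, 0.0462 ± 0.0206 and 0.319 ± 0.494 in cKO EAE, control EAE and cKO basal. Drd3, the remaining D2-class receptor, had 0 to 8 counts per library and did not pass the filter on low counts.

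**Figure D1:**
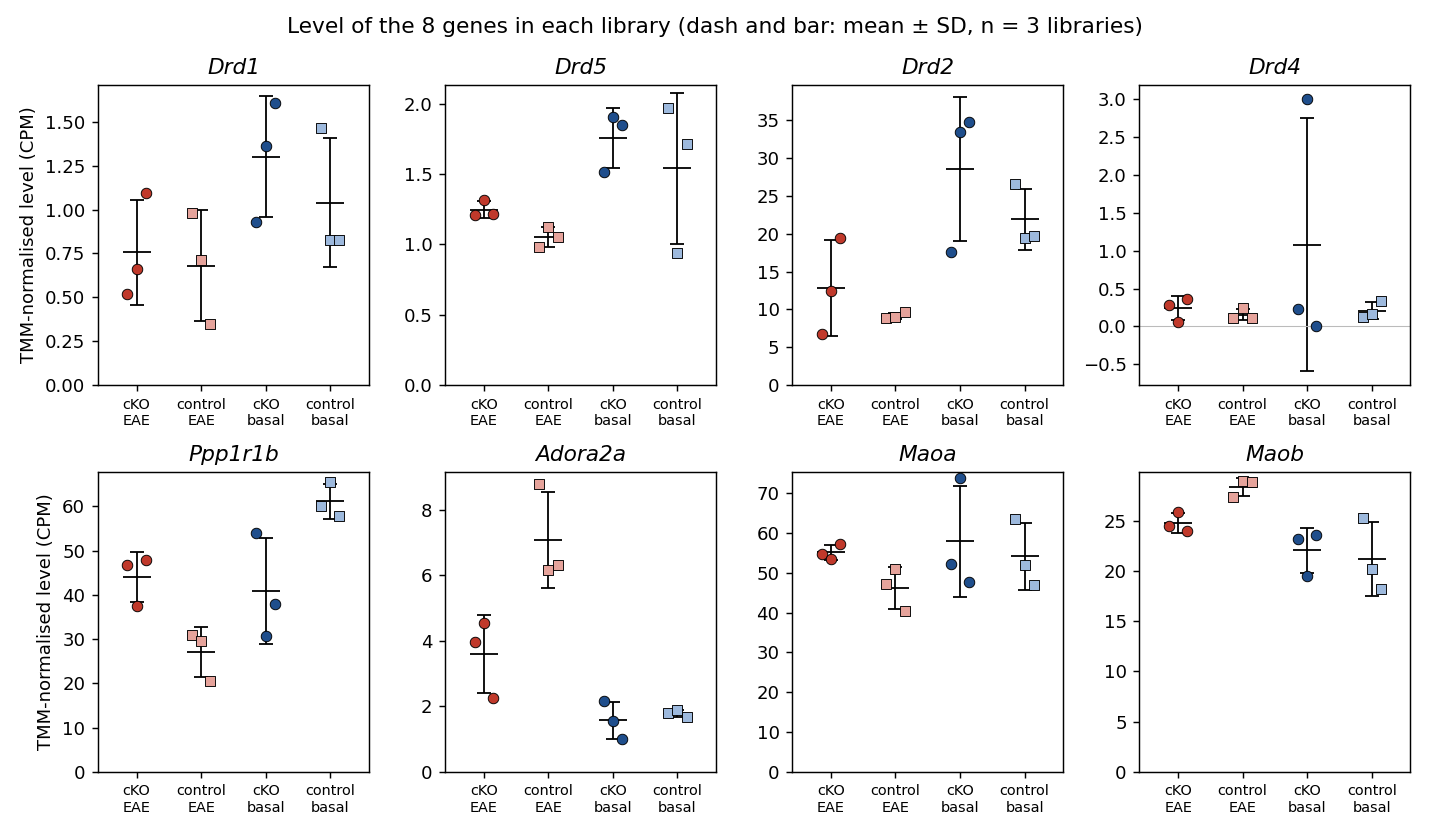
TMM-normalised level in CPM (vertical axes, each from its own scale) of the 8 genes in the 12 libraries, with the groups on the horizontal axes; points are libraries, dashes and bars the mean ± SD of 3 libraries. Adora2a is highest in control EAE (6.16 to 8.77 CPM), Ppp1r1b has its lowest mean there (20.6 to 31.0 CPM), and the Drd4 mean of cKO basal rests on 1 library.

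In each comparison 7 of the 8 genes passed the filter on low counts, and Drd4 did not. Calls were made by the quasi-likelihood test of edgeR at an adjusted p below 0.05. Between EAE and basal in control mice 3 of the 7 were called, 1 upward (Adora2a) and 2 downward (Drd2 and Ppp1r1b), against a background of 12.1% of all tested genes called upward and 5.05% downward (17.1% in all). An unadjusted p below 0.05 was reached by 4 of the 7 and by 28.6% of all genes. The median log2 fold change of the 7 was -0.55, and that of all genes -0.01. In cKO mice the same contrast called 0 of the 7, against a background of 0.0376%, with a median of -0.07 (0.08 over all genes), and 2 of the 7 reached an unadjusted p below 0.05 (19.6% of all genes did). At that background a count of 0 does not set these genes apart from others.

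Between cKO and control mice 0 of the 7 were called at EAE, against a background of 7.67% (6.13% upward and 1.54% downward). An unadjusted p below 0.05 was reached by 3 of the 7 and by 35.9% of all genes, and the median was 0.28 (0.00 over all genes). Without disease 0 were called by edgeR, against a background of 0.0%, and 0 reached an unadjusted p below 0.05 (0.181% of all genes). For the difference between both EAE changes 0 were called by edgeR as well (background 0.0%), and 1 reached an unadjusted p below 0.05 (9.12% of all genes). DESeq2 called 2 members in cKO mice (6.88% of all genes), 4 in control mice (24.9%), 2 between genotypes at EAE (25.5%), 0 without disease (0.00598%) and 1 for the difference (1.03%). By limma voom with sample weights 2 were called in cKO mice (19.6%), 4 in control mice (59.8%), 2 between genotypes at EAE (32.3%), 0 without disease (0.0%) and 2 for the difference (16.1%). The contrasts share groups, so their counts are not independent of each other.

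**Figure D2:**
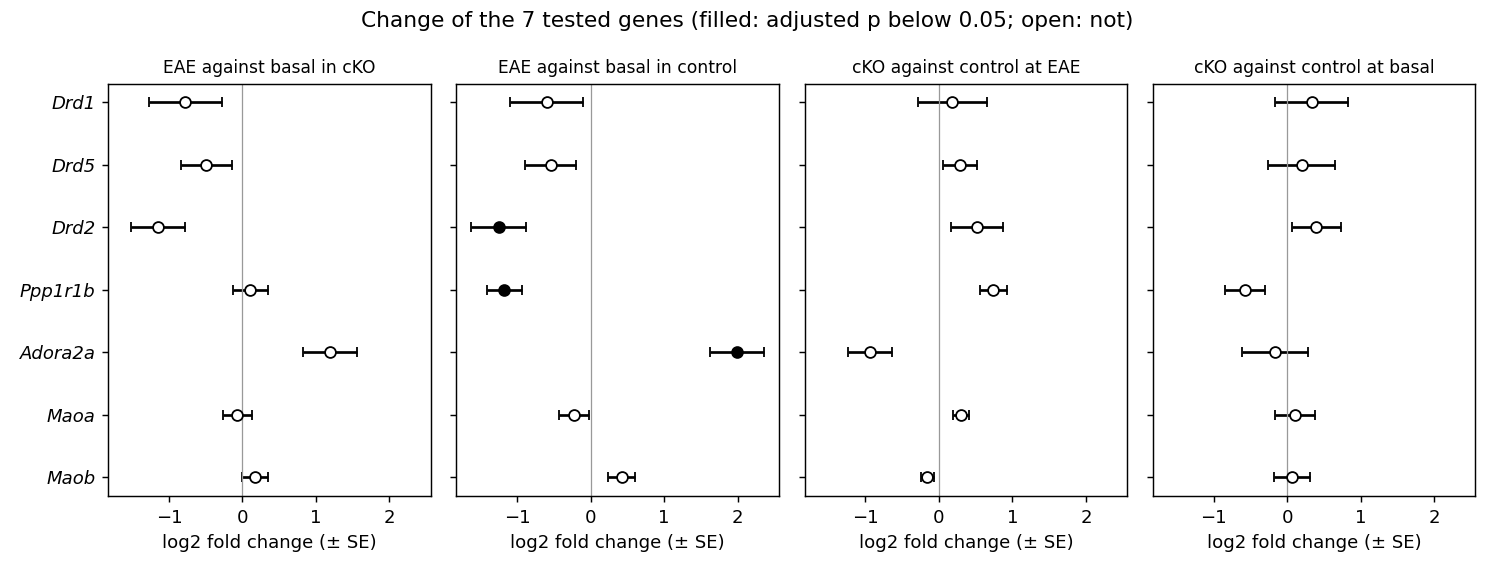
Log2 fold change (horizontal axes, ± SE) of the 7 tested genes in 4 comparisons by edgeR; filled points have an adjusted p below 0.05 over all genes. Calls fall in EAE against basal of control mice only, for Drd2, Ppp1r1b and Adora2a.

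The D2 receptor RNA fell at EAE in control mice, with no overlap between the states. Drd2 had 6.73, 12.5 and 19.4 CPM in cKO EAE, 8.89, 9.0 and 9.62 CPM in control EAE, 17.6, 33.4 and 34.7 CPM in cKO basal and 26.5, 19.4 and 19.7 CPM in control basal (replicates 1, 2 and 3). The control EAE libraries were close together and all below control basal, a pattern shared by 27.0% of tested genes, while the highest cKO EAE library lay above the lowest cKO basal library. Per library total cKO basal 2 had 24.3 CPM in place of 33.4. In control mice the log2 fold change was -1.25 (SE 0.37, adjusted p = 0.0411 by edgeR). That call was lost when any of the 6 control libraries was left out (adjusted p of 0.0755 to 0.134) and with no filter on low counts (0.0597), although the value stayed between -1.37 and -1.10 over all alternatives. In cKO mice the change was -1.15 (SE 0.37, adjusted p = 0.170), with -1.61 and adjusted p = 0.0305 without cKO EAE 3. Over the fits without 1 cKO library 5 to 1075 of all genes were called, against 7 with all libraries. The Drd2 change in cKO mice passed by DESeq2 (-1.19, adjusted p = 0.0454) and by limma voom (-1.63, adjusted p = 0.00556). It was -1.46 with adjusted p = 0.00938 when cKO basal 2 and cKO EAE 3 were left out, where 14.3% of genes were called, 3.51% downward. Of 14 neuronal markers 7 fell in control mice at EAE (median -1.18), where 5.05% of all genes were called downward. In cKO mice 0 of 14 were called (median -0.07), against 0.0376% of all genes. The part of these markers in the Drd2 result was not tested.

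The deposited gene count did not show less Drd2 RNA in cKO mice. The log2 fold change between cKO and control mice was 0.52 (SE 0.35, adjusted p = 0.318) at EAE and 0.40 (SE 0.34, adjusted p = 0.997) at basal by edgeR, and the sign at EAE changed to -0.08 by limma voom with sample weights. Leaving out cKO EAE 3 brought the value at EAE to 0.10. Counts of whole cord over the whole gene do not report on a deletion in astrocytes alone, so the genotype stands as labelled. Within cKO EAE the highest Drd2 level was in the library with the lowest Cd74 level. In bulk tissue, fewer cells of a type and less RNA per cell cannot be told apart, here and for all following results.

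Drd4, the other receptor of the D2 class, was near the limit of detection. It had 5, 1 and 6 counts in cKO EAE, 2, 4 and 2 in control EAE, 4, 33 and 0 in cKO basal and 2, 3 and 6 in control basal. The 33 counts belonged to cKO basal 2, the library with the fewest genes detected, and the other 11 libraries had 0 to 6. At this depth Drd4 was left out of the main fits, and with no filter on low counts it was not called.

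The D1-class receptors were low in all groups. Drd5 had 1.21, 1.32 and 1.22 CPM in cKO EAE, 0.981, 1.12 and 1.05 CPM in control EAE, 1.51, 1.91 and 1.85 CPM in cKO basal and 1.97, 0.939 and 1.71 CPM in control basal, from 17 to 31 counts per library. All cKO EAE libraries lay below all cKO basal libraries (5.78% of tested genes did so) and above all control EAE libraries (21.2%), while control EAE overlapped control basal. Its log2 fold change was -0.49 (SE 0.35, adjusted p = 0.461) in cKO and -0.55 (SE 0.35, adjusted p = 0.360) in control mice, by edgeR. Drd1 ranged over 0.517 to 1.09 CPM in cKO EAE, 0.350 to 0.981 in control EAE, 0.931 to 1.61 in cKO basal and 0.829 to 1.46 in control basal, from 6 to 27 counts, and every pair of groups overlapped. Its changes were -0.78 (SE 0.49, adjusted p = 0.401) in cKO and -0.60 (SE 0.49, adjusted p = 0.494) in control mice. Between cKO and control mice at EAE Drd5 gave 0.28 (SE 0.23, adjusted p = 0.433) and Drd1 0.18 (SE 0.48, adjusted p = 0.805), and without disease they gave 0.20 (SE 0.46) and 0.33 (SE 0.50), with adjusted p = 0.997 each by edgeR. Per kilobase, Drd2 exceeded Drd1 in every library, with a mean ratio of 23.6 ± 4.45 in cKO EAE, 23.4 ± 13.9 in control EAE, 30.8 ± 3.94 in cKO basal and 31.0 ± 4.51 in control basal (SD, n = 3 each).

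DARPP-32 RNA fell at EAE in control mice and did not pass in cKO mice. Ppp1r1b had 46.8, 37.4 and 47.8 CPM in cKO EAE, 31.0, 29.7 and 20.6 CPM in control EAE, 54.0, 30.7 and 38.0 CPM in cKO basal and 60.0, 65.6 and 57.9 CPM in control basal. The control EAE libraries lay below all those of control basal, as for 27.0% of tested genes. Apart from cKO basal 2, they also lay below those of every other group, and the share of genes with this wider order was not determined. In control mice its log2 fold change was -1.18 (SE 0.24, adjusted p = 0.00792 by edgeR), and each alternative kept the call (values of -1.36 to -1.09, adjusted p up to 0.0349). In cKO mice it was 0.11 (SE 0.24, adjusted p = 0.833). The difference between both changes was 1.28 (SE 0.34), with an unadjusted p of 0.00311 and an adjusted p of 0.547 by edgeR, and it did not pass. DESeq2 gave 1.22 with adjusted p = 0.0490 (1.03% of genes called) and limma voom with sample weights 1.16 with adjusted p = 0.00837 (16.1% called). Over all alternatives the difference was 1.03 to 1.54.

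DARPP-32 of cKO and control mice stood in opposite order with and without disease. At EAE all cKO libraries were above all control libraries, as for 21.2% of tested genes, with a log2 fold change of 0.74 (SE 0.19, adjusted p = 0.0564 by edgeR). The adjusted p ran from 0.00589 to 0.246 over the alternatives. The threshold was passed without cKO EAE 2 (0.0372) and without cKO EAE 3 (0.0418). It was also passed with no filter on low counts (0.0481, where 3.6% of genes were called upward), by DESeq2 and by limma voom. With 1 of the 6 EAE libraries left out, 0 to 3418 of all genes were called, against 1374 with all 6. Without disease all cKO libraries were below all control libraries, as for 3.64% of tested genes, with -0.57 (SE 0.27, adjusted p = 0.997), and -0.41 without cKO basal 2. The summed level of the 14 neuronal markers was 6409 to 8416 CPM in cKO EAE, 3212 to 4438 in control EAE, 7105 to 12053 in cKO basal and 8597 to 9535 in control basal. Of these 14, 7 fell and 0 rose in control mice at EAE (median -1.18), where 5.05% of all genes were called downward and 12.1% upward. At EAE 8 of the 14 were higher in cKO than in control mice (median 0.89), where 6.13% of all genes were called upward. The part of the 14 markers in the change of DARPP-32 was not tested.

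DARPP-32 RNA was also set against the neuronal markers of the same library, and on this ratio control EAE and control basal overlapped. The ratio was 5.61, 5.84 and 5.68 CPM of Ppp1r1b per 1000 CPM of the 14 markers in cKO EAE, 8.09, 6.68 and 6.41 in control EAE, 5.94, 2.54 and 5.35 in cKO basal and 6.29, 7.33 and 6.74 in control basal. All 6 cKO libraries lay below all 6 control libraries on this measure, which was chosen after the values were seen. The share of all genes that separate in this way on the same ratio was not determined. The separation belongs to the sum, since with each of the 14 markers alone as the denominator the genotypes overlapped in every case, and the cKO mean was lower with 11 of 14. The same ratio of Drd2 was 0.807, 1.94 and 2.30 in cKO EAE, 2.32, 2.03 and 3.00 in control EAE, 1.94, 2.77 and 4.88 in cKO basal and 2.78, 2.17 and 2.29 in control basal, and its groups overlapped.

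**Figure D3:**
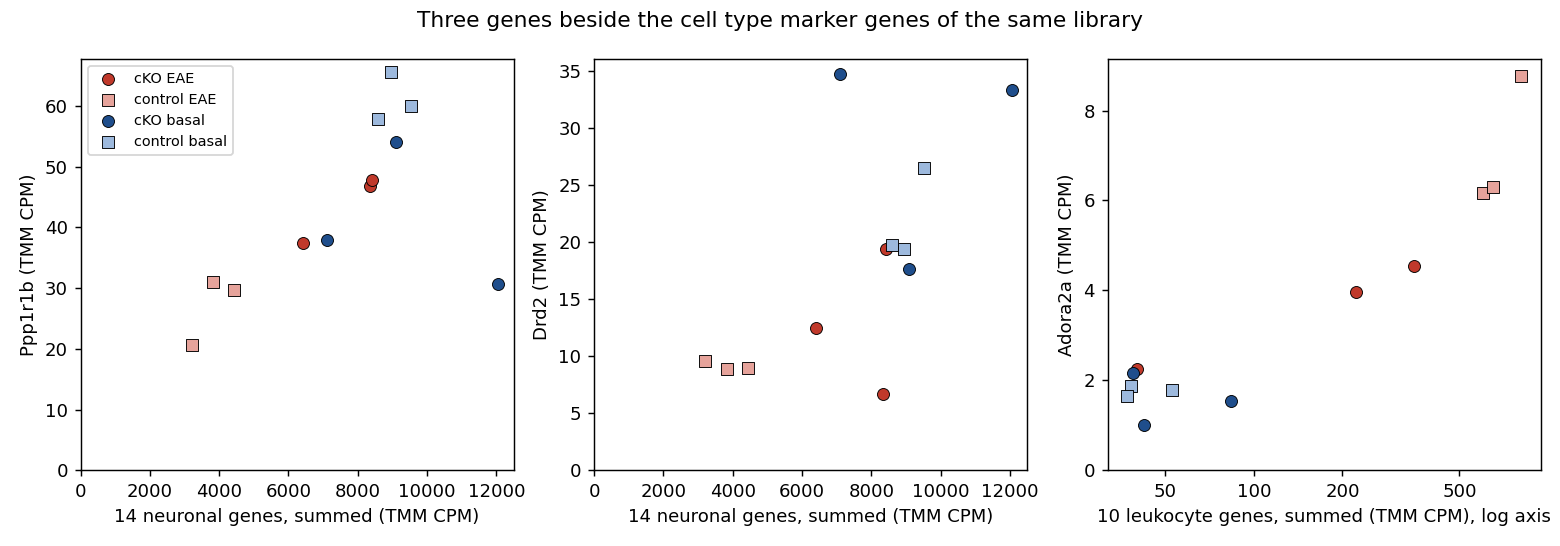
Level in CPM (vertical axes) of Ppp1r1b and Drd2 against the summed level of 14 neuronal genes, and of Adora2a against that of 10 leukocyte genes (log axis), each point 1 of 12 libraries. The control EAE libraries have the lowest marker sums (3212 to 4438 CPM), a Ppp1r1b level of 31.0 CPM or less and a Drd2 level of 9.62 CPM or less. The lowest Drd2 level (6.73 CPM) is in cKO EAE 1 at a marker sum of 8341 CPM, cKO basal 2 has 30.7 CPM of Ppp1r1b at the highest sum (12053 CPM), and Adora2a is lowest where leukocyte genes are below 100 CPM.

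The adenosine A2a receptor was the only member called upward by edgeR in the main fits. Adora2a had 3.97, 4.55 and 2.25 CPM in cKO EAE, 8.77, 6.16 and 6.30 CPM in control EAE, 2.15, 1.55 and 1.01 CPM in cKO basal and 1.78, 1.88 and 1.66 CPM in control basal. The EAE libraries were above the basal libraries in both genotypes, as for 9.8% of tested genes in cKO and 29.8% in control mice, and all cKO EAE libraries were below all control EAE libraries, as for 26.7%. In control mice it rose with a log2 fold change of 1.99 (SE 0.37, adjusted p = 0.00506 by edgeR), and the call held under each alternative (values of 1.73 to 2.08). In cKO mice the change was 1.19 (SE 0.37, adjusted p = 0.159), and 1.41 with adjusted p = 0.0158 without cKO basal 2 and cKO EAE 3, where 10.8% of genes were called upward. It passed by DESeq2 (1.16, adjusted p = 0.0373) and by limma voom (1.37, adjusted p = 0.0167). Between genotypes at EAE it was -0.94 (SE 0.30, adjusted p = 0.0833), a direction shared by all alternatives, with adjusted p of 0.0273 by DESeq2 and 0.0395 by limma voom. The difference between both EAE changes was -0.81 (SE 0.51, adjusted p = 0.630). Without disease the genotypes overlapped (-0.16, SE 0.45, adjusted p = 0.997 by edgeR).

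Leukocyte markers, too, were highest in the control EAE libraries. The 10 leukocyte markers summed to 222, 349 and 39.9 CPM in cKO EAE, 810, 603 and 652 CPM in control EAE, 38.9, 83.7 and 42.2 CPM in cKO basal and 52.8, 38.2 and 37.1 CPM in control basal. The 10 microglia and macrophage markers summed to 223 to 2648 CPM in cKO EAE, 3841 to 8566 in control EAE, 159 to 349 in cKO basal and 184 to 202 in control basal. In control mice 9 of 9 tested leukocyte markers and 10 of 10 microglia and macrophage markers rose at EAE (12.1% of all genes did). The library cKO EAE 3, lowest in these sums among the EAE libraries, also had the lowest Adora2a level among them. Endothelial markers, 8 genes, summed to 317 to 373 CPM in cKO EAE, 352 to 427 in control EAE, 200 to 387 in cKO basal and 215 to 229 in control basal. The part of these cells in the Adora2a result was not tested.

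Neither monoamine oxidase passed the edgeR test in any comparison of the main fits. Maoa had 54.8, 53.6 and 57.1 CPM in cKO EAE, 47.1, 51.0 and 40.5 CPM in control EAE, 52.3, 73.8 and 47.6 CPM in cKO basal and 63.5, 51.9 and 47.1 CPM in control basal. The value of 73.8 belonged to cKO basal 2 and was 53.6 CPM per library total. Its log2 fold change at EAE was -0.07 (SE 0.20, adjusted p = 0.870) in cKO and -0.23 (SE 0.20, adjusted p = 0.528) in control mice, by edgeR. Between genotypes at EAE all cKO libraries were above all control libraries, as for 21.2% of tested genes, with 0.29 (SE 0.11, adjusted p = 0.111), and without disease they overlapped (0.11, SE 0.27, adjusted p = 0.997). Maob, which in the central nervous system is known from astrocytes and serotonergic neurons, had 24.5, 25.9 and 23.9 CPM in cKO EAE, 27.3, 28.9 and 28.9 CPM in control EAE, 23.2, 19.5 and 23.6 CPM in cKO basal and 25.3, 20.2 and 18.2 CPM in control basal. All EAE libraries lay above all basal libraries in both genotypes (as for 9.8% of tested genes in cKO and 29.8% in control mice), and all cKO EAE libraries lay below all control EAE libraries (26.7%). In cKO mice the gap between the states was narrow, from 23.6 to 23.9 CPM, and from 24.870 to 24.891 CPM per library total. The change was 0.17 (SE 0.18, adjusted p = 0.640) in cKO and 0.42 (SE 0.18, adjusted p = 0.146) in control mice. Between genotypes it was -0.16 (SE 0.09, adjusted p = 0.231) at EAE and 0.06 (SE 0.24, adjusted p = 0.997) without disease. The change of Maob in control mice passed in the fit of the 6 control libraries alone (adjusted p = 0.0403, 24.5% of genes called upward), without cKO basal 2 and cKO EAE 3 (0.0214, 24.9% called upward), by DESeq2 and by limma voom.

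The ratio of the oxidases was lowest in control EAE. The ratio of Maoa to Maob, per kilobase and free of any scaling between libraries, was 1.5, 1.38 and 1.60 in cKO EAE, 1.15, 1.18 and 0.936 in control EAE, 1.51, 2.54 and 1.35 in cKO basal and 1.68, 1.72 and 1.73 in control basal. The control EAE libraries lay below those of every other group. The share of gene ratios that separate in this way was not determined. In means the ratio was 1.09 ± 0.133 in control EAE against 1.71 ± 0.0276 in control basal, and 1.49 ± 0.108 in cKO EAE (SD, n = 3 each). The differences of -0.621 between EAE and basal in control mice and of 0.402 between cKO and control mice at EAE each gave p = 0.1 by an exact two-sided permutation test, the smallest p that 3 against 3 libraries allow (adjusted p = 0.2 over 4 comparisons). In cKO mice the groups overlapped (p = 0.8 by the same exact test), as did cKO basal and control basal. Both genes are X-linked, and the EAE libraries alone held counts of the Y-linked Ddx3y. The 609 tested X-linked genes had a median log2 fold change of 0.02 in cKO and -0.16 in control mice (0.08 and -0.01 over all genes). In control mice 18.6% of the X-linked genes were called, against 17.1% of all genes. In the contrasts of EAE with basal, sex and disease cannot be told apart, while at EAE the libraries of both genotypes held Ddx3y. The astrocyte markers, 10 genes, summed to 5303 to 9505 CPM in cKO EAE, 8502 to 9952 in control EAE, 3063 to 5580 in cKO basal and 4833 to 5593 in control basal. The part of astrocyte RNA in the oxidase ratio was not tested.

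**Figure D4:**
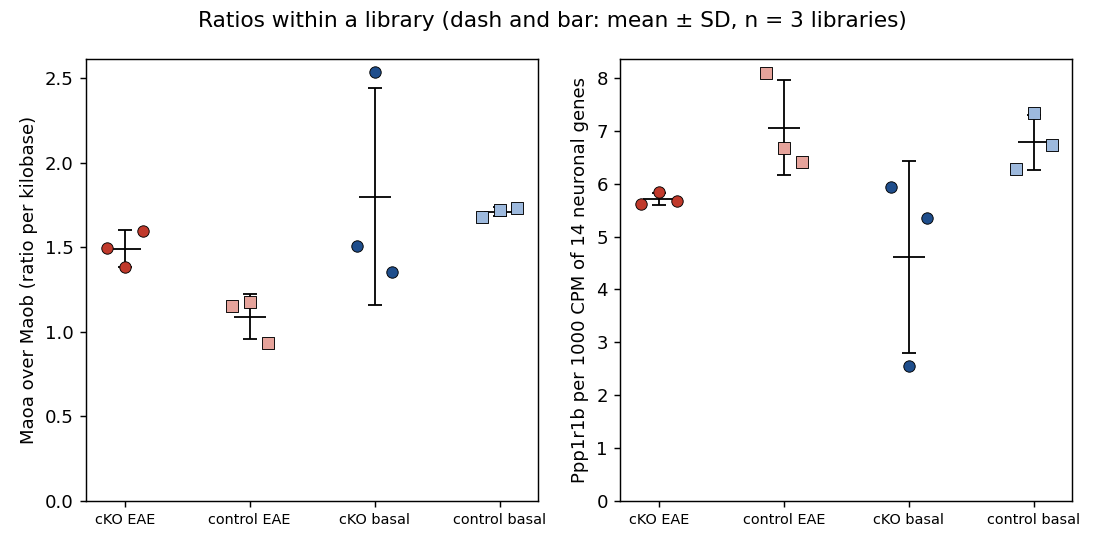
Left, ratio of Maoa to Maob per kilobase; right, CPM of Ppp1r1b per 1000 CPM of 14 neuronal genes; groups on the horizontal axes, points are libraries, dashes and bars the mean ± SD of 3 libraries. The oxidase ratio is lowest in control EAE (0.936 to 1.18), and cKO basal 2 stands apart in both panels (2.54 in each).

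Other genes of dopamine turnover and signalling were taken from a list of 71, of which 67 were tested in the contrasts of EAE with basal. In control mice 5 rose and 11 fell (16 of 67, or 23.9%, against 17.1% of all genes), with a median log2 fold change of -0.45. Among inhibitory G protein alpha subunits, which D2-class receptors use, Gnai1 fell (-1.14, SE 0.19, adjusted p = 0.00373) and Gnaz fell (-0.84, SE 0.19, adjusted p = 0.0117), while Gnai2 rose (1.17, SE 0.23, adjusted p = 0.00719) and Gnai3 rose (1.09, SE 0.24, adjusted p = 0.0111), all by edgeR. Prkar1b, a regulatory subunit of protein kinase A, fell by 1.05 on the log2 scale, Kcnj3, a potassium channel subunit opened by these G proteins, fell by 1.18, and Ncs1, a calcium sensor that binds the D2 receptor, fell by 0.91. Adora3, the adenosine A3 receptor, rose by 3.56 (SE 0.79), with means of 6.55 ± 1.19 CPM in control EAE and 0.552 ± 0.240 CPM in control basal (SD, n = 3 each). Called genes thus moved in both directions. The count was 6 to 10 when any of the 6 control libraries was left out, where 1724 to 2073 of all genes were called. It was 40 without cKO basal 2 and cKO EAE 3, where 45.8% of all genes were called, 20.8% downward.

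In cKO mice, where 0.0376% of all genes were called at EAE, 0 of the 67 were called (median -0.05). The 3 with the smallest p were Caly, which encodes a protein that binds the D1 receptor (-2.50, SE 0.76, adjusted p = 0.151), Cav1, caveolin (0.86, SE 0.27, adjusted p = 0.162), and Gnai2 (0.69, SE 0.23, adjusted p = 0.183), by edgeR. Caly had 612 CPM in cKO basal 2, against 30.4 to 111 CPM in the other 11 libraries, and its change was -0.64 without that library. Between cKO and control mice at EAE 9 of 67 were higher and 1 lower in cKO (14.9%, against 7.67% of all genes), with a median of 0.23. Ncs1 was higher by 0.67 (SE 0.10), Gnai1 by 0.86 (SE 0.15) and Kcnj3 by 0.86 (SE 0.18). Among them were also the kinase subunit Prkacb (0.68, SE 0.15), the adenylyl cyclase Adcy9 (0.88, SE 0.15) and the G protein subunit Gnao1 (0.50, SE 0.10), while the receptor kinase Grk6 was lower (-0.44, SE 0.09). Their adjusted p ran from 0.0440 (Ncs1, Adcy9 and Gnai1) to 0.0481 (Prkacb). The count was 24 without cKO EAE 2, 19 without cKO EAE 3 and 0 without cKO EAE 1 or any of the 3 control EAE libraries. Over these fits 0 to 3418 of all genes were called, against 1374 with no library left out. This contrast and that of EAE with basal in control mice share the control EAE libraries, which bears on every gene named in both, among them Gnai1, Kcnj3 and Ncs1. The parts of neuronal and leukocyte RNA in these counts were not tested. Without disease 0 of 66 were called (0.0% of all genes), with Caly (1.67, SE 0.94) and Ppp3ca (0.95, SE 0.59) at the smallest p and adjusted p = 0.997 each by edgeR. Without cKO basal 2 these values were -0.22 for Caly and 0.02 for Ppp3ca. For the difference between both EAE changes 0 of 67 were called (0.0% of all genes), with Gnai1 (0.81, SE 0.27), Prkar1b (0.76, SE 0.26) and Prkaca (0.92, SE 0.33) first and adjusted p = 0.547 each.

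Genes with the most similar profile were sought among 12097 protein-coding genes, for the 4 members with a mean of at least 5 CPM. Likeness was the root mean square distance between log2 levels over the 12 libraries, each profile centred on its own mean. The profile of Drd2, whose own root mean square deviation was 0.75 (log2), came closest to those of Calb1 (distance 0.18), Plk5 (0.19) and Gpr101 (0.20). Calb1 encodes the calcium-binding protein calbindin, which marks sets of dorsal horn neurons, and Gpr101 an orphan receptor. Ppp1r1b (own deviation 0.49) came closest to the potassium channel Kcnk1 (0.15), the synaptic vesicle protein Vamp1 (0.15) and Larp6 (0.15). Maoa (0.21) came closest to Oxct1 (0.08), Rtn4 (0.09) and Odr4 (0.10), and Maob (0.21) to the X-linked Stag2 (0.08), Rnf4 (0.08) and Mynn (0.09).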

How the data were processed

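The authors deposited raw read counts per gene for 12 libraries of spinal cord RNA. Per the submitters' processing notes, HISAT2 2.0.5 (alignment), mm10 and featureCounts 1.5.0-p3 (counting) were used; the labels give no strand setting, handling of multi-mapping reads or annotation release. Counts were scaled by TMM, filtered with edgeR's filterByExpr and tested on all genes by quasi-likelihood in edgeR 4.0.16 (with limma 3.58.1, DESeq2 1.42.0 and R 4.3.3), with Benjamini-Hochberg adjustment and a threshold of 0.05. Both EAE changes and their difference came from 1 fit of 12 libraries, the genotype comparisons from the 6 libraries of a state. The SE was the log2 fold change divided by the square root of F. The scripts were tested on simulated counts. Recovery of changed genes was required there only at a low simulated spread, not at the spread of these data. P-values measure the spread between libraries, which the labels call biological replicates; low genes are limited by counting error.

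Named were all 8 members, up to 8 called pathway genes by smallest p in each comparison (the first 3 by p where fewer than 3 were called) and the 3 nearest profiles. Some genes that this rule names are not reported here. The members, lists and tests were chosen with earlier results of these data known. Alternatives were DESeq2 size factors, no filter, a replicate block, DESeq2, limma voom with sample weights, other libraries in the fit, a 2-fold minimum and leaving out each library. Leaving out cKO basal 2 with cKO EAE 3, and single neuronal denominators, were chosen after seeing the data.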

Additional observations from a re-analysis of the deposited data

How the results depend on the processing

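Counts of members called were 3 between EAE and basal in control mice (2 to 4 over all alternatives) and 0 without disease under every alternative run. In cKO mice 0 members were called between EAE and basal, against 2 by DESeq2, 2 by limma voom, 2 without cKO basal 2 and cKO EAE 3, and 0 to 1 without single libraries (1, Drd2, without cKO EAE 3). At EAE between genotypes the count was 0, against 1 with no filter, 2 by DESeq2, 2 by limma voom and 0 to 1 without single libraries. For the difference between the EAE changes it was 0, against 1 by DESeq2 and 2 by limma voom. Pathway genes in control mice numbered 16 (17.1% of all genes called). They numbered 8 with no filter (6.95%) and 10 with the replicate block (13.5%). They numbered 50 by limma voom (59.8%) and 39 in the fit of control libraries alone (45.6%). Without cKO basal 2 and cKO EAE 3 they numbered 40 (45.8%), and with a 2-fold minimum 7, where 2388 of all genes were called. Without single libraries they numbered 6 to 10, and 1724 to 2073 of all genes were called. In cKO mice they numbered 0 (0.0376% of all genes called), against 1 by DESeq2 (6.88%) and 23 by limma voom (19.6%). They numbered 12 without the 2 libraries (14.3%). Without single libraries they numbered 0 to 1 (1 without cKO EAE 3), and 5 to 1075 of all genes were called. At EAE between genotypes they numbered 10 (7.67% of all genes called), against 32 by DESeq2 (25.5%) and 33 by limma voom (32.3%). They numbered 0 with the replicate block (0.0%), 0 in the fit of all 12 libraries (0.0%) and 0 with a 2-fold minimum (share of all genes not reported here). Without single libraries they numbered 0 to 24, and 0 to 3418 of all genes were called. For the difference they numbered 0 (0.0% of all genes called), against 16 by limma voom (16.1%). The causes of these shifts were not tested. Of 511 single values of members under alternatives, 482 kept their side of the threshold, 21 newly passed, 8 no longer passed (all of them Drd2 in control mice) and none of the called values changed sign.

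The replicate numbers mark no shared animal, litter or day in the labels. Same-numbered libraries deviated together by -0.507 to 0.424 (correlation across genes), and 2 to 4 of 6 libraries per pair of groups went best with their own number. With the replicate block the Drd2 call in control mice was lost (adjusted p = 0.0508 by edgeR) and 2 members were called there. Levels below about 1 CPM rest on fewer than 20 counts.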
